A study of Homo sapiens with 12 samples.

Results

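The genes described here are 50 regulators of the cell cycle and of DNA replication, chosen by symbol from a table of 51838 genes. Each of the 50 symbols had 1 row. The members were read in 5 groups by role: 9 G1 cyclins, their kinases and RB1; 5 E2F factors; 13 genes of origin licensing and replication; 8 cyclins, kinases and phosphatases of S and G2/M phase, FOXM1 among them; and 15 mitotic kinases, checkpoint and chromosome proteins. All 50 passed the filter on low counts that left 28141 genes for testing, CCND2 only through the MDA-MB-231 libraries.

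The study treated HCC70 and MDA-MB-231, established human breast cancer lines that the labels call basal-like, to find genes that respond to the glucocorticoid receptor and STAT3. Cells received 100 nM dexamethasone, a synthetic agonist of the glucocorticoid receptor, or the same volume of ethanol for 4 h. PolyA RNA was sequenced in 12 libraries, 3 in each of 4 groups: HCC70 with dexamethasone, HCC70 with vehicle, MDA-MB-231 with dexamethasone and MDA-MB-231 with vehicle. HCC70 cells grew in RPMI and MDA-MB-231 cells in DMEM, each with serum, and effects of line and of medium cannot be told apart. Whether the replicates are separate cultures is not stated in the labels; the tests rest on the spread between libraries, which may be technical.

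In G1 phase, cyclin D with CDK4 or CDK6, and then cyclin E with CDK2, phosphorylate the retinoblastoma protein RB1 and release the activating E2F factors. E2F factors then raise transcription of genes for licensing and replication of DNA and for the next cyclins, while E2F7 and E2F8 are atypical family members that repress the same kind of target. Genes of G2 and mitosis are held down in resting cells by the DREAM complex and are raised later in the cycle by MYBL2 and FOXM1.

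The libraries held 106345287 to 123218973 counts each, and levels below are CPM (counts divided by library size, times 1e+06) on library sizes scaled by the trimmed mean of M values (TMM). The treatment was visible in both lines: FKBP5, a direct target of the receptor, averaged 218 ± 1.8 CPM with dexamethasone and 35.2 ± 1.1 CPM with vehicle in HCC70, and 1119 ± 47 CPM with dexamethasone and 56.2 ± 5.5 CPM with vehicle in MDA-MB-231 (SD, n = 3 each). The basal keratins KRT5, KRT14 and KRT17 averaged 2595, 86.7 and 254 CPM in HCC70 vehicle cells. They averaged at most 1.28 CPM in MDA-MB-231 vehicle cells, so the basal-like label of MDA-MB-231 has no keratin support in these data. EGFR was present in both lines, while TP63, also a basal marker, averaged 1.37 CPM in HCC70 and 0.326 CPM in MDA-MB-231 vehicle cells. The luminal markers GATA3, FOXA1, KRT8 and ESR1 averaged 69.9, 51.1, 1164 and 3.94 CPM in HCC70 vehicle cells. In MDA-MB-231 vehicle cells they averaged 11.2, 0.0223, 818 and 0.0713 CPM. KRT18 averaged 435 CPM in HCC70 and 706 CPM in MDA-MB-231, and PGR 0 and 0.016 CPM. The mesenchymal markers VIM, ZEB1, CDH2 and FN1 averaged 2212, 48.5, 2.28 and 599 CPM in MDA-MB-231 vehicle cells. In HCC70 vehicle cells these 4 averaged 145, 0.373, 0 and 256 CPM. Markers of immune, endothelial and red blood cells stayed at or below 0.658 CPM in every group mean, except the macrophage-associated CD68, at 23.5 to 65.7 CPM.

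In MDA-MB-231, dexamethasone lowered 4 of the 5 E2F factors, 2 of the 9 G1 genes, 3 of the 13 licensing and replication genes and CDC25A. Of the 50 members, 10 fell and 2 rose (edgeR quasi-likelihood test, Benjamini-Hochberg adjusted p under 0.05 over all genes tested), against 7.96% of all tested genes lower and 6.65% higher (14.6% in either direction). In a fit limited to 13796 genes of at least 5 CPM in 3 libraries, 27.5% were called in either direction. There too 10 members fell and 2 rose. The 10 that fell were CCND1, CCNE2, E2F1, E2F2, E2F7, E2F8, CDC6, CDT1, MCM2 and CDC25A, and the 2 that rose were CDC20 and CDK6. The 5 E2F factors had a median log2 fold change of −0.70, the value of E2F1, against −0.01 over all genes tested; with an offset for the GC content and length of transcripts, their median was −0.37, and 4 of 5 fell there too. The 15 mitotic genes had a median of −0.02, and CDC20 was the only one of them to pass. In these bulk libraries, fewer cells in a phase of the cycle and less RNA per cell cannot be told apart.

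Among the E2F factors, E2F7 changed most. It read 37.7, 34.6 and 35.6 CPM in dexamethasone libraries, against 82.0, 95.4 and 95.1 CPM in vehicle libraries of MDA-MB-231. The groups were far apart, and E2F7 was 2.52-fold lower (log2 fold change −1.34 ± 0.07 SE, adjusted p = 7.16e-09, edgeR). E2F2, an activating factor that these cells express at a low level, read 6.59, 7.16 and 6.53 CPM with dexamethasone and 15.1, 13 and 11.8 CPM with vehicle. It was 1.97-fold lower (−0.98 ± 0.08, adjusted p = 1.49e-06), with no overlap. E2F8, the other atypical repressor, read 18.9, 17.5 and 19.0 CPM with dexamethasone and 20.9, 24.6 and 23.2 CPM with vehicle, a smaller but non-overlapping fall (−0.31 ± 0.07, adjusted p = 0.0085). E2F3 did not pass (−0.11 ± 0.07, adjusted p = 0.315).

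E2F1, the best known activator of the family, read 98.2, 120 and 101 CPM with dexamethasone and 225, 159 and 136 CPM with vehicle in MDA-MB-231. The groups did not overlap, but vehicle replicate 1 stood well above the other 2 vehicle libraries. The log2 fold change was −0.70 ± 0.15 (adjusted p = 0.01), and −0.46 without vehicle replicate 1 (adjusted p = 0.00277). The call ended without dexamethasone replicate 1 (adjusted p = 0.0508) and when the line was fitted alone (adjusted p = 0.107). With the GC and length offset it was −0.37 (adjusted p = 9.72e-05).

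The G1 cyclins and kinases moved in different directions in MDA-MB-231. CCND1, cyclin D1, read 442, 431 and 427 CPM with dexamethasone and 708, 678 and 652 CPM with vehicle. It fell 1.57-fold, with groups widely apart (−0.65 ± 0.05, adjusted p = 1.03e-06). CCNE2, a cyclin E that partners CDK2, read 24.4, 24.1 and 24.6 CPM with dexamethasone and 27.9, 31.5 and 30.3 CPM with vehicle (−0.30 ± 0.06, adjusted p = 0.00307). CDK6, one of the 2 kinases that cyclin D activates, went the other way: it read 185, 185 and 195 CPM with dexamethasone and 120, 142 and 139 CPM with vehicle, 1.41-fold higher (0.49 ± 0.07, adjusted p = 0.000128). Its relative CDK4 read 114, 105 and 110 CPM with dexamethasone and 112, 103 and 99.7 CPM with vehicle, overlapping groups (adjusted p = 0.492).

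CCND3, cyclin D3, overlapped in MDA-MB-231, at 188, 244 and 199 CPM with dexamethasone and 277, 227 and 200 CPM with vehicle (−0.16 ± 0.11, adjusted p = 0.369). RB1 also overlapped, at 87.1, 82.7 and 85.8 CPM with dexamethasone and 75.8, 93.7 and 85.7 CPM with vehicle (adjusted p = 0.998).

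CDC25A, the phosphatase that activates CDK2 at the G1/S boundary, fell with little spread within either group. It read 29.7, 28.3 and 30.1 CPM with dexamethasone and 41.5, 40.8 and 41.9 CPM with vehicle in MDA-MB-231 (−0.50 ± 0.05, adjusted p = 1.77e-05). Its relatives CDC25B and CDC25C, which act later in the cycle, did not pass there (adjusted p = 0.267 and 0.363).

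Of the 13 licensing and replication genes, 3 fell in MDA-MB-231 and none rose in the fit without an offset. CDC6, which loads the MCM helicase at origins, read 63.4, 54.5 and 61.9 CPM with dexamethasone and 74.5, 78.8 and 83.2 CPM with vehicle, without overlap (−0.39 ± 0.08, adjusted p = 0.00417). CDT1, its partner in loading, read 31.4, 47.4 and 32 CPM with dexamethasone and 79.6, 56.6 and 48.0 CPM with vehicle. The CDT1 groups were separated by a narrow gap (−0.73 ± 0.20, adjusted p = 0.0321), and the value was −0.50 without vehicle replicate 1 (adjusted p = 0.0791). Its call also ended without vehicle replicate 2 (adjusted p = 0.0563), dexamethasone replicate 1 (0.122) or dexamethasone replicate 3 (0.116), and in the line fitted alone (0.16). With the GC and length offset the fall of CDT1 was −0.29 (adjusted p = 0.000138).

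MCM2, a subunit of the replicative helicase, averaged lower with dexamethasone (−0.29 ± 0.08, adjusted p = 0.0268), but only −0.07 with the GC and length offset (adjusted p = 0.38). Its call ended too without vehicle replicate 1 (−0.17, adjusted p = 0.0878), vehicle replicate 2 (0.0517), dexamethasone replicate 1 (0.0851) or dexamethasone replicate 3 (0.115), and in the line fitted alone (0.146). The 5 other MCM subunits had log2 fold changes below 0 and none passed without the offset. The nearest was MCM5 (−0.30 ± 0.10, adjusted p = 0.0636). With the offset MCM6 (−0.15, edgeR adjusted p = 0.0196) and MCM3 (−0.11, 0.0404) were lower. PCNA, the sliding clamp of the replication fork, read 92.8, 80.9 and 86.5 CPM with dexamethasone and 85.7, 86.3 and 89.1 CPM with vehicle, overlapping (adjusted p = 0.986). The offset put PCNA lower too, at −0.16 (edgeR, adjusted p = 0.00634). In that fit 5 of the 13 licensing and replication genes fell and 0 rose, against 9.68% and 8.63% of all genes.

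CDC20 was the only mitotic gene to pass in the fit without an offset. It encodes the activator of the anaphase-promoting complex and read 491, 530 and 506 CPM with dexamethasone, against 306, 274 and 280 CPM with vehicle in MDA-MB-231. Every dexamethasone library was far above every vehicle library, a 1.77-fold rise (0.83 ± 0.06, adjusted p = 2e-07), and the offset left it at 0.93. The other 14 mitotic genes lay between −0.09 (CENPE) and 0.16 (TOP2A) on the log2 scale without the offset. With it AURKA was lower (−0.14, edgeR adjusted p = 0.00958) and TOP2A higher (0.12, adjusted p = 0.0422). Of all genes, 9.68% were lower and 8.63% higher there. MKI67, the proliferation marker Ki-67, read 559, 541 and 592 CPM with dexamethasone and 497, 569 and 637 CPM with vehicle, overlapping (adjusted p = 0.97). CCNB1, the mitotic cyclin B1, read 196, 170 and 188 CPM with dexamethasone and 159, 169 and 186 CPM with vehicle, also overlapping (adjusted p = 0.382).

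**Figure D1:**
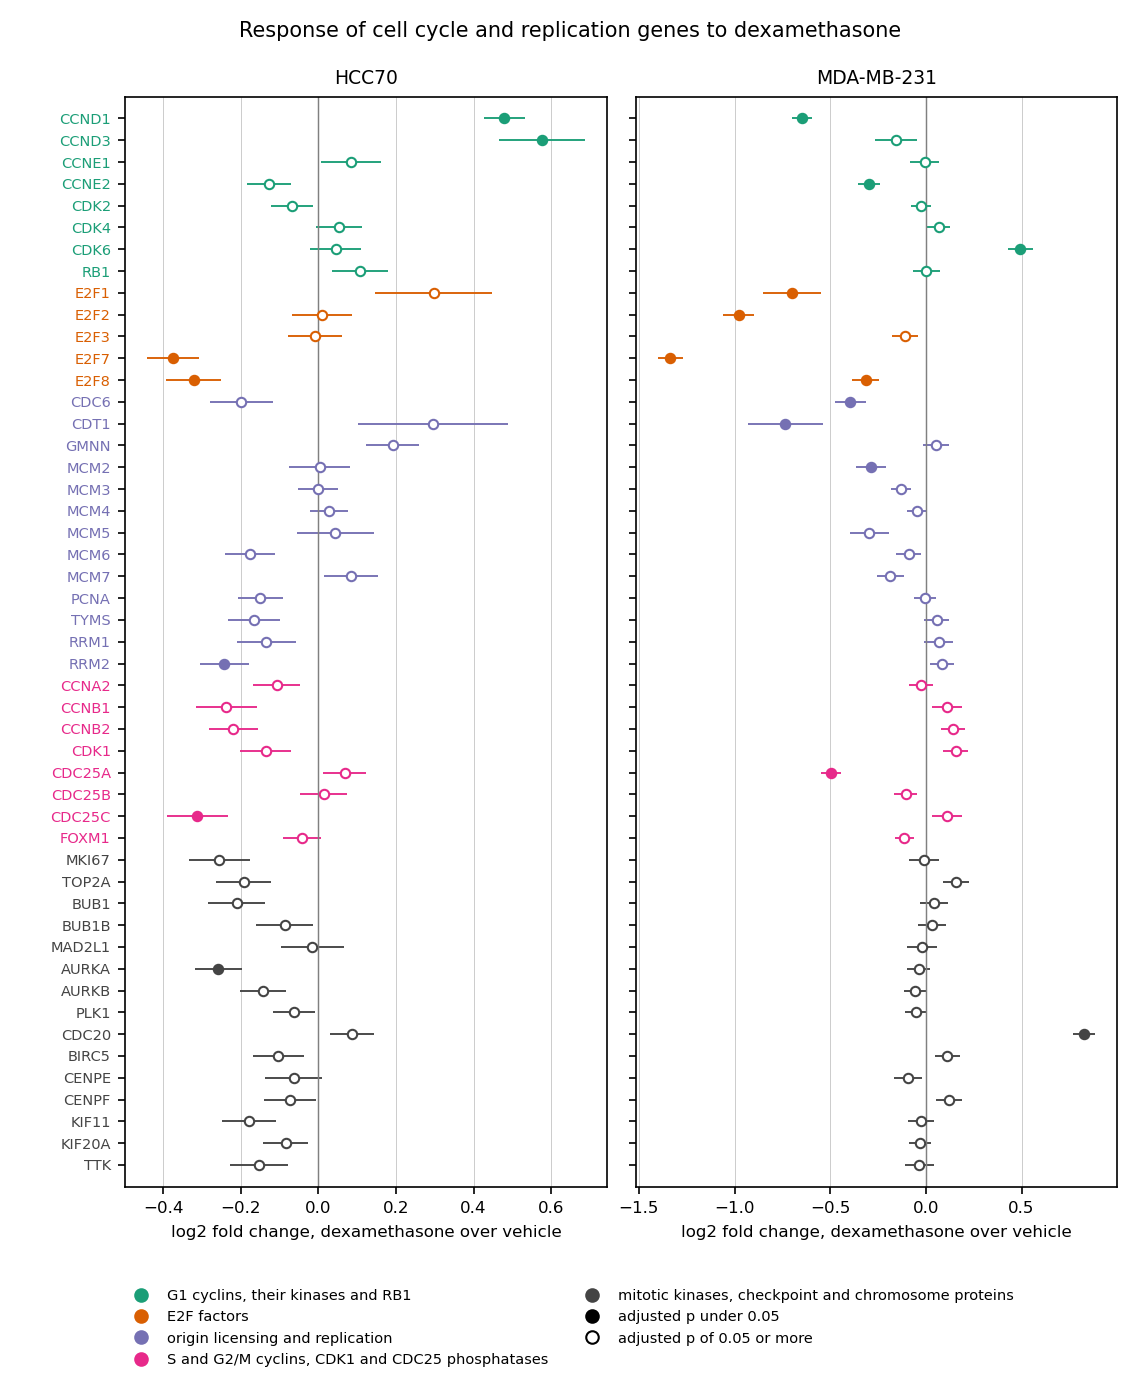
Log2 fold change, dexamethasone over vehicle, of 49 members in HCC70 (left) and MDA-MB-231 (right), with bars of 1 SE, from fits with 3 libraries a group; colours give the role, filled points passed at an adjusted p under 0.05, and the x axes of the panels differ in range. CCND2 is not drawn because HCC70 vehicle libraries hold no count for it. In MDA-MB-231 the 10 filled points on the left are led by E2F7, E2F2 and CDT1, with CDC20 and CDK6 filled on the right; in HCC70 most mitotic genes sit a little left of 0, between −0.26 and 0.09.

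The promoters of the members, which their choice did not use, were searched for short runs of letters. RefSeq promoter windows on GRCh38.p14, 250 bases before to 50 bases after the start, were held for 39 of the 50 members. An E2F-like run (TTTCCCGC, TTTCGCGC or TTTGGCGC on either strand) occurred in 13 of these 39 windows (33.3%), against 2.79% of 27305 promoters of the same length. A cell cycle homology run (CHR; TTTGAA or TTTAAA on either strand, a set with no run in common with the E2F-like one) occurred in 17 of 39 (43.6%), against 24.3% of all promoters. Of the 7 members with a window that fell in MDA-MB-231, 6 held an E2F-like run and 0 held a CHR run; these were E2F1, E2F2, CDC6, CDT1, MCM2 and CDC25A. E2F7 held neither kind, and CCND1, CCNE2 and E2F8 had no entry, so an E2F-like run was found for 6 of the 10 that fell. Of 12 mitotic genes with a window, 0 held an E2F-like run and 10 held a CHR run. The 32 members with a window that did not fall held an E2F-like run in 7 cases (21.9%), so replication genes such as MCM3, MCM6, MCM7 and PCNA carry it too. A match of letters is a description and was not tested as a site.

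The 250 bases before the start are shown for 3 genes that fell in MDA-MB-231 with an E2F-like run (E2F1, E2F2 and CDC25A), for E2F7, which fell most and holds neither kind of run, and for CDC20 and PLK1 as mitotic genes with CHR runs, the one that rose and one whose groups overlapped. Capitals mark the runs, all read 5′ to 3′ on the gene's strand. E2F1 lies at chr20:33686386-33686635 on the minus strand, with its run starting 20 bases before the start. E2F2 lies at chr1:23531234-23531483 on the minus strand, with its run 42 bases before the start. CDC25A lies at chr3:48188418-48188667 on the minus strand, with its run 44 bases before the start. E2F7 lies at chr12:77065570-77065819 on the minus strand. CDC20 lies at chr1:43358731-43358980 on the plus strand, with TTTGAA 65 bases before the start and its reverse complement TTCAAA at 178. PLK1 lies at chr16:23678639-23678888 on the plus strand, with TTTAAA at 148 and 88 bases and TTTGAA at 29 bases before the start.
E2F1: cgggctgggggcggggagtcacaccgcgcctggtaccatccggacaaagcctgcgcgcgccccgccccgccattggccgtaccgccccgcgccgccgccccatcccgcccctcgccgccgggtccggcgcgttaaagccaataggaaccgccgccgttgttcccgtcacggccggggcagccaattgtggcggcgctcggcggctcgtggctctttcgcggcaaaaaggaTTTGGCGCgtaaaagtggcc
E2F2: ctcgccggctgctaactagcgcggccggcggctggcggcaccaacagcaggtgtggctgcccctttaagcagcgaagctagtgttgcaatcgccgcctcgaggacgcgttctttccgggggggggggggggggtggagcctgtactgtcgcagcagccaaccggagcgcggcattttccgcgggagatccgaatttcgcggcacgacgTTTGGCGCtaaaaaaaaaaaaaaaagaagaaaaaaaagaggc
CDC25A: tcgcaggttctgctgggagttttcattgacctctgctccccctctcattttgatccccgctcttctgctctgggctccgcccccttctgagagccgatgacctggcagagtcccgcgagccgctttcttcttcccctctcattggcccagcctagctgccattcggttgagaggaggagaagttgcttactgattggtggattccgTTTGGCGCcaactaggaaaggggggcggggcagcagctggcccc
E2F7: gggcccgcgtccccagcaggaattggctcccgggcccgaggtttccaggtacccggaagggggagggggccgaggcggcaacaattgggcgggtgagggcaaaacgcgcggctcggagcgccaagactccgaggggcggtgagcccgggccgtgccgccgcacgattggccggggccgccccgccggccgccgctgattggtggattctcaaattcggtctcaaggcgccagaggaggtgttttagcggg
CDC20: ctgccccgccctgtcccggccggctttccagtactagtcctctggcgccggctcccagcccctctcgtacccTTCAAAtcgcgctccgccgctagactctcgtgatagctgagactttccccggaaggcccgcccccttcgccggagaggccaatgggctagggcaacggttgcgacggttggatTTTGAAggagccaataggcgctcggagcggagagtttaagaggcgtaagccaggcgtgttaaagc
PLK1: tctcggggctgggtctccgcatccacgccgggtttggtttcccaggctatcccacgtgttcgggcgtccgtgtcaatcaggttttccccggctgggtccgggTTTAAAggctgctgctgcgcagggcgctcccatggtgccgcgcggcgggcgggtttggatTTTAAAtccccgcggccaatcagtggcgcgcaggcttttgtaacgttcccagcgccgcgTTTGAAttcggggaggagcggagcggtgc

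In HCC70 the D cyclins CCND1 and CCND3 were higher with dexamethasone, and 2 E2F factors, 1 replication gene, 1 S and G2/M gene and 1 mitotic gene were lower. At the same threshold, 5 members fell and 2 rose in HCC70, against 1.4% of all tested genes lower and 2.55% higher (3.96% in either direction). CCND1 and CCND3 rose, and E2F7, E2F8, RRM2, CDC25C and AURKA fell. In a fit limited to 13796 genes of at least 5 CPM in 3 libraries, 8.5% were called in either direction. There 6 members fell, CCNB2 included, and 2 rose.

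CCND1 read 164, 160 and 156 CPM with dexamethasone and 114, 116 and 115 CPM with vehicle in HCC70. The groups were tight and apart, and CCND1 rose 1.39-fold (0.48 ± 0.05, adjusted p = 0.000103), opposite to MDA-MB-231. CCND3 read 135, 130 and 129 CPM with dexamethasone and 86.7, 90.1 and 87.9 CPM with vehicle, 1.49-fold higher (0.58 ± 0.11, adjusted p = 0.00958); without vehicle replicate 1 its adjusted p was 0.0601. The other G1 kinases and RB1 did not pass in the fit without an offset. CDK4 read 112, 109 and 112 CPM with dexamethasone and 109, 109 and 103 CPM with vehicle (adjusted p = 0.668). CDK6 read 64.9, 66.4 and 66.2 CPM with dexamethasone and 64.4, 61.4 and 65.8 CPM with vehicle (adjusted p = 0.76). RB1 read 45.1, 48.1 and 47.1 CPM with dexamethasone and 45.3, 41.1 and 44.0 CPM with vehicle (adjusted p = 0.458). With the GC and length offset RB1 was higher, at 0.17 (edgeR, adjusted p = 0.0302). CDK6 and RB1 overlapped between the groups.

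E2F7 fell in HCC70 too, at 19.3, 18.3 and 19.2 CPM with dexamethasone and 25.3, 23.7 and 24.7 CPM with vehicle (−0.37 ± 0.07, adjusted p = 0.00537). E2F8 read 15.1, 15.2 and 14.5 CPM with dexamethasone and 19.3, 19.2 and 17.6 CPM with vehicle (−0.32 ± 0.07, adjusted p = 0.0213). Both pairs of groups were apart, so the atypical E2F factors fell in both lines. The activators did not pass in this fit. E2F2 read 186, 177 and 191 CPM with dexamethasone and 178, 182 and 192 CPM with vehicle, overlapping (adjusted p = 0.978). With the GC and length offset E2F2 was lower, at −0.16 (edgeR, adjusted p = 0.0245). E2F1 was higher in each dexamethasone library, at 148, 150 and 150 CPM, against 114, 122 and 129 CPM with vehicle, without passing (0.30 ± 0.15, adjusted p = 0.323); with the offset it was 0.07.

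RRM2, a subunit of the reductase that makes deoxyribonucleotides, read 122, 123 and 119 CPM with dexamethasone and 148, 145 and 137 CPM with vehicle in HCC70 (−0.24 ± 0.06, adjusted p = 0.0484). CDC25C, the phosphatase that activates CDK1 at entry into mitosis, read 9.82, 9.49 and 8.49 CPM with dexamethasone and 11.2, 10.9 and 12.5 CPM with vehicle (−0.31 ± 0.08, adjusted p = 0.041). AURKA, the mitotic kinase Aurora A, read 51.5, 54.5 and 50.9 CPM with dexamethasone and 65.3, 61.9 and 60.4 CPM with vehicle (−0.26 ± 0.06, adjusted p = 0.0279). None of these groups overlapped, and the falls were small (CDC25C 1.24-fold, AURKA 1.20-fold, RRM2 1.18-fold). The call on CDC25C ended with the GC and length offset (−0.23, adjusted p = 0.0791) and in 15 of 26 alternatives in all, and that on RRM2 in 13 of 26.

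MKI67, CCNB1 and PCNA were lower in every dexamethasone library of HCC70 without passing in the fit without an offset. MKI67 read 319, 305 and 313 CPM with dexamethasone and 387, 376 and 355 CPM with vehicle (−0.26 ± 0.08, adjusted p = 0.101). With the GC and length offset MKI67 passed as lower, at −0.28 (edgeR, adjusted p = 0.025). CCNB1 read 57.0, 56.8 and 55.3 CPM with dexamethasone and 72.6, 66.1 and 60.6 CPM with vehicle (−0.24 ± 0.08, adjusted p = 0.128). PCNA read 108, 109 and 107 CPM with dexamethasone and 123, 120 and 116 CPM with vehicle (−0.15 ± 0.06, adjusted p = 0.19). CDC6 overlapped, at 20.9, 22.6 and 22.1 CPM with dexamethasone and 27.3, 25.8 and 22.3 CPM with vehicle (adjusted p = 0.217).

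Across the members, dexamethasone libraries of HCC70 lay wholly below vehicle libraries for 25 of 50 genes and wholly above for 9; over all genes tested these shares were 15.3% and 17.1%. Among genes with a mean of at least 3 on the log2 CPM scale, which 49 of the 50 members reached, they were 21.4% and 27.1%. The mitotic group held 11 of 15 genes wholly below and 14 of 15 with a log2 fold change under 0, at a median of −0.10. The S and G2/M group held 6 of 8 wholly below, at a median of −0.12. In MDA-MB-231 the corresponding numbers were 0 of 15 and 2 of 8, and over the 50 members 13 lay wholly below and 3 wholly above, against 13.3% and 13.9% of all genes. Scaling by library size alone moved the median of all genes in HCC70 to −0.10 and put all 15 mitotic genes under 0, at a median of −0.19. The mitotic genes had a median GC content of 43.2%, and 730 genes with a GC content near 43.1% had a median of −0.08 in HCC70. With the GC and length offset the mitotic median was −0.11, with 14 of 15 under 0. There 4 of the 15 passed as lower, against 3.29% of all genes. Other measures of the HCC70 libraries moved with treatment: mitochondrial genes took 2.73 to 2.82% of counts with dexamethasone and 3.47 to 3.83% with vehicle, histone genes took 0.0180 to 0.0189% with dexamethasone and 0.0237 to 0.0254% with vehicle, and TMM factors were 0.908 to 0.934 with dexamethasone and 0.977 to 0.987 with vehicle. Their part in the shift of the mitotic genes was not tested.

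How many members passed in HCC70 depended on the fit. With HCC70 fitted alone, 15 fell and 5 rose, against 7.13% and 11.9% of all genes tested in that fit. MKI67 (−0.26, adjusted p = 0.00145), CCNB2 (−0.22, 0.00392), BUB1 (−0.21, 0.00678), CCNB1 (−0.24, 0.00804) and TOP2A (−0.19, 0.0129) were then among those that passed, while E2F1, CDT1 and GMNN were the additional genes that were higher. With the GC and length offset on all libraries, E2F1 was at 0.07 and CDT1 at −0.02 in HCC70 (edgeR, adjusted p = 0.521 and 0.871). GMNN was at 0.32 there (adjusted p = 0.000356). In the fit over all libraries, the 7 calls became 3 without any 1 dexamethasone library of HCC70 or without vehicle replicate 2, 2 without vehicle replicate 1, and 4 without MDA-MB-231 dexamethasone replicate 3. They became 18 without MDA-MB-231 vehicle replicate 1 and dexamethasone replicate 2 together, the libraries of that line that stood apart from their groups; 13.5% of all genes were called in that setting, against 3.96% with every library. The calls on E2F8, RRM2, CDC25C and AURKA each ended under at least 1 of these omissions; that on CCND1 ended under none.

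**Figure D2:**
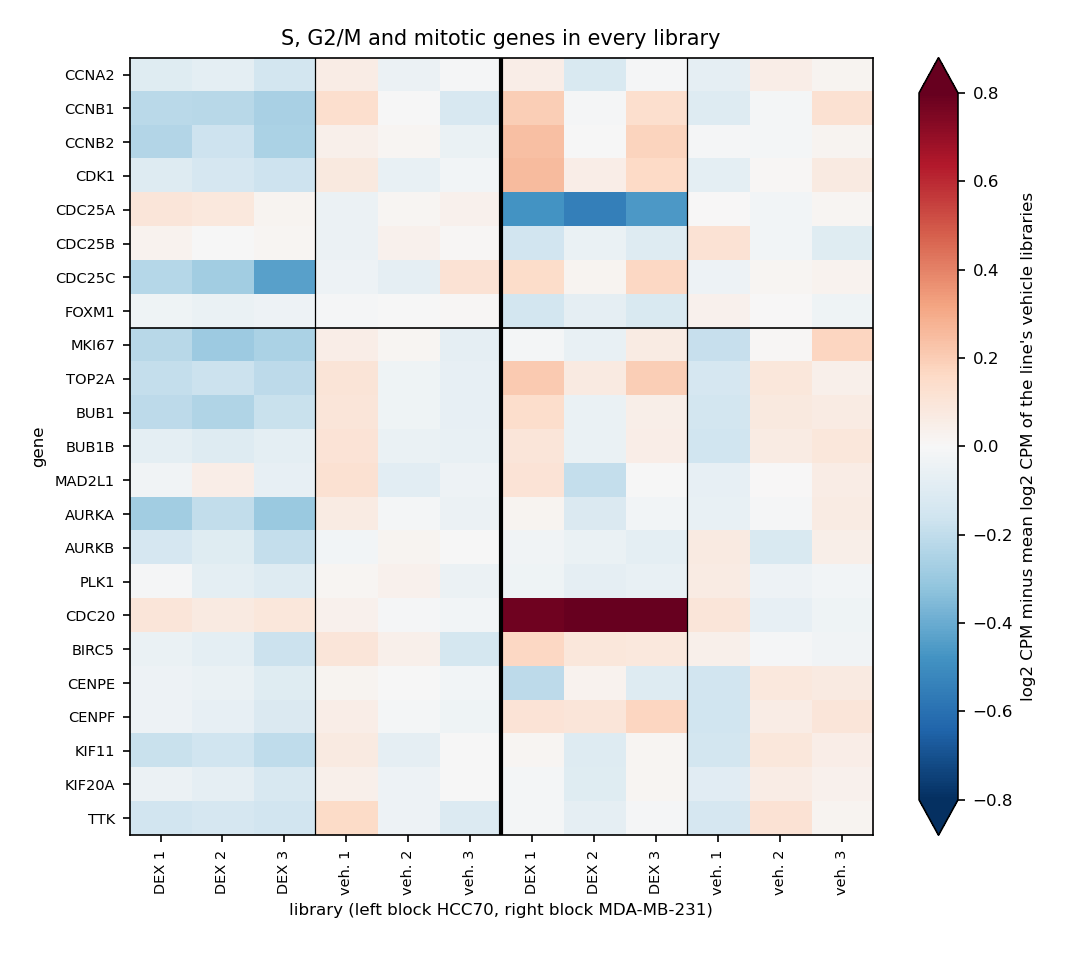
Each cell gives the log2 CPM of 1 of 23 S, G2/M and mitotic genes (rows) in 1 library (columns) minus the mean over the vehicle libraries of the same line, with dexamethasone libraries left of vehicle libraries in each line and HCC70 left of MDA-MB-231. Most rows are pale blue in all 3 HCC70 dexamethasone libraries, as for MKI67 at 319, 305 and 313 CPM against 387, 376 and 355 CPM; in MDA-MB-231 the strong cells are the rise of CDC20 and the fall of CDC25A.

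The responses of the lines were compared in the same fit. The difference of the responses, HCC70 minus MDA-MB-231, passed for 13 of 50 members, 7 above 0 and 6 below, against 12.1% of all genes tested (6.96% above and 5.09% below). In a fit limited to 13796 genes of at least 5 CPM in 3 libraries, 30.3% passed, with 7 members above 0 and 9 below. The values that follow are from the fit over all genes tested. CCND1 differed most clearly (1.13 ± 0.07, adjusted p = 4.15e-07), since it rose in HCC70 and fell in MDA-MB-231. E2F7 fell in both lines, less in HCC70 by 0.96 ± 0.09 (adjusted p = 1.74e-05), and E2F2 differed by 0.99 ± 0.11 (adjusted p = 7.52e-05). The difference for CDC20 was −0.74 ± 0.08 (adjusted p = 4.98e-05); in HCC70 it read 289, 283 and 287 CPM with dexamethasone and 276, 268 and 266 CPM with vehicle, which did not overlap but did not pass (0.09 ± 0.06, adjusted p = 0.443). CDC25A differed by 0.56 ± 0.08 (adjusted p = 0.000331) and CDK6 by −0.45 ± 0.09 (adjusted p = 0.00771). CDC25A in HCC70 overlapped, at 12.6, 12.5 and 12 CPM with dexamethasone and 11.4, 11.9 and 12.1 CPM with vehicle. CCND3 differed by 0.73 ± 0.16 (adjusted p = 0.01) and E2F1 by 1.00 ± 0.21 (adjusted p = 0.014). These 8 passed with any 1 library left out. The other 5, CDT1, RRM2, CCNB2, CDC25C and TOP2A, did not, and the count became 8 without HCC70 dexamethasone replicate 3, HCC70 vehicle replicate 1, or MDA-MB-231 dexamethasone replicate 1 or 3.

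E2F8, which fell in both lines, showed a difference of −0.01 ± 0.10 (adjusted p = 1). CCND1, E2F7 and E2F8 were the 3 members called in both lines, against 1.89% of all genes tested.

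**Figure D3:**
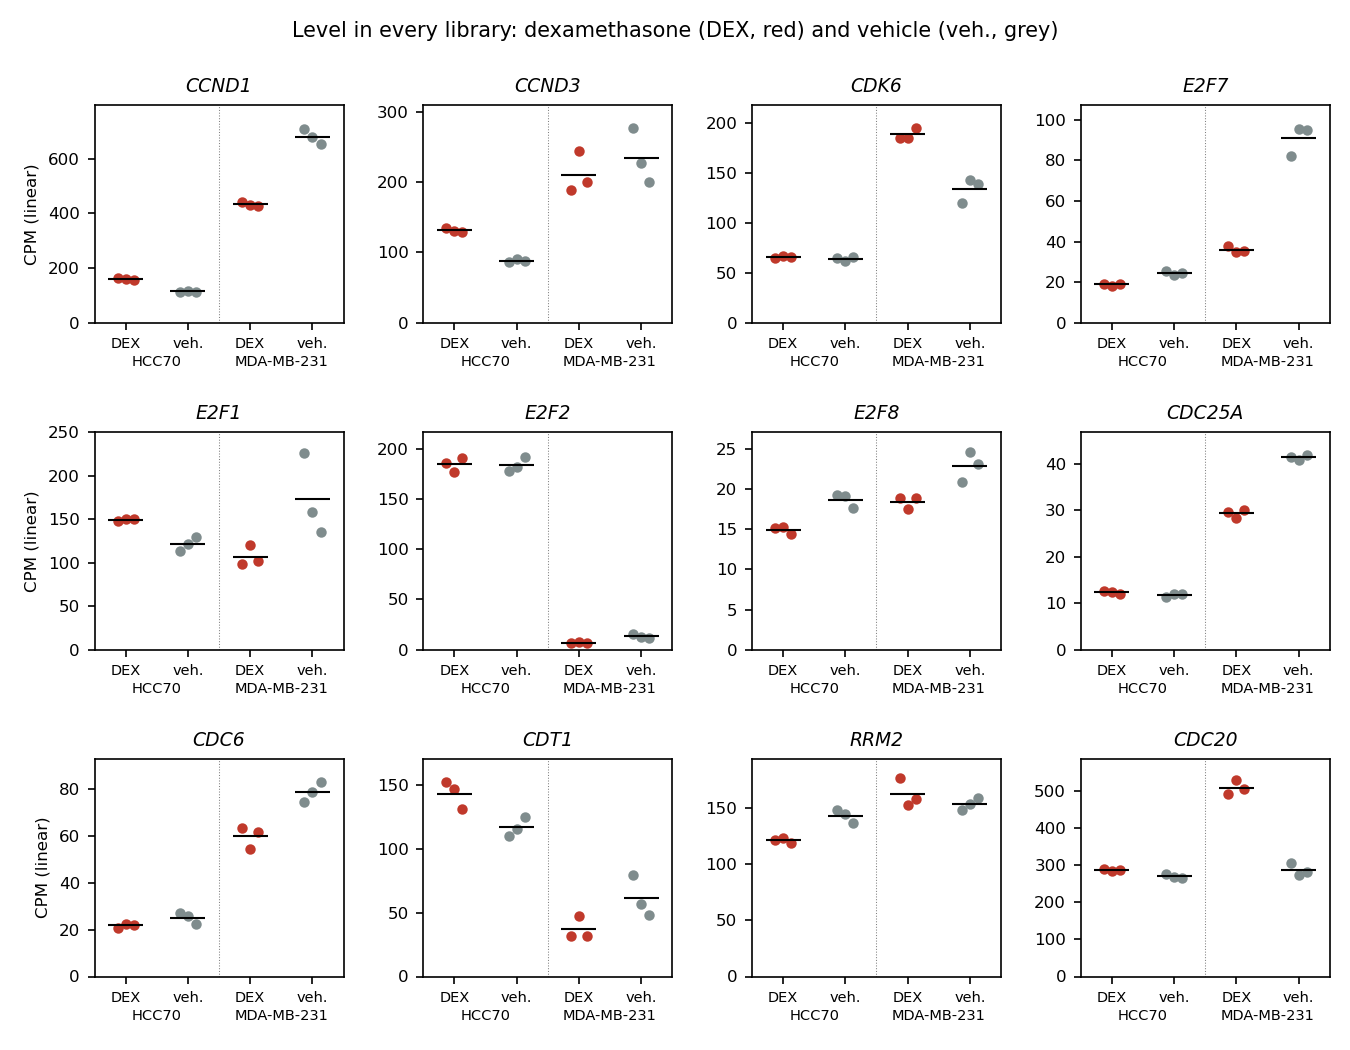
CPM of 12 members in every library on linear axes that start at 0; red points are dexamethasone libraries, grey points vehicle libraries, and the black line is the mean of 3. CCND1 is higher with dexamethasone in HCC70 (160 ± 4.2 against 115 ± 1.4 CPM) and lower in MDA-MB-231 (434 ± 7.9 against 679 ± 28 CPM), while the E2F7 and CDC20 groups separate widely in MDA-MB-231.

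The GC content of transcripts moved with the treatment, in opposite directions in the 2 lines. Over 14596 genes, the log2 fold change correlated with GC content at a Spearman rho of 0.50 in HCC70 and −0.45 in MDA-MB-231; over 49 members it was 0.46 and −0.40. These are correlations across genes of the same libraries, given as descriptions. In HCC70 the deviation of a library from the mean of its line correlated with GC at 0.38 to 0.52 in dexamethasone libraries and at −0.62 to −0.16 in vehicle libraries, so there GC trend and treatment cannot be told apart. In MDA-MB-231 it was −0.53, 0.28 and −0.52 in dexamethasone libraries and 0.70, 0.17 and −0.25 in vehicle libraries; vehicle replicate 1 and dexamethasone replicate 2 stood apart from their groups. The GC-rich transcripts of CDT1 (64.9%), E2F1 (62.5%) and MCM2 (58.1%) had smaller falls with the offset, at −0.29, −0.37 and −0.07, while E2F7 (43.1%), E2F8 (45.9%) and CDC6 (45.5%) stood at −1.36, −0.35 and −0.41 with it. With the offset 14 members fell and 3 rose in MDA-MB-231, against 9.68% and 8.63% of all genes, and 8 fell and 4 rose in HCC70, against 3.29% and 4.21%.

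**Figure D4:**
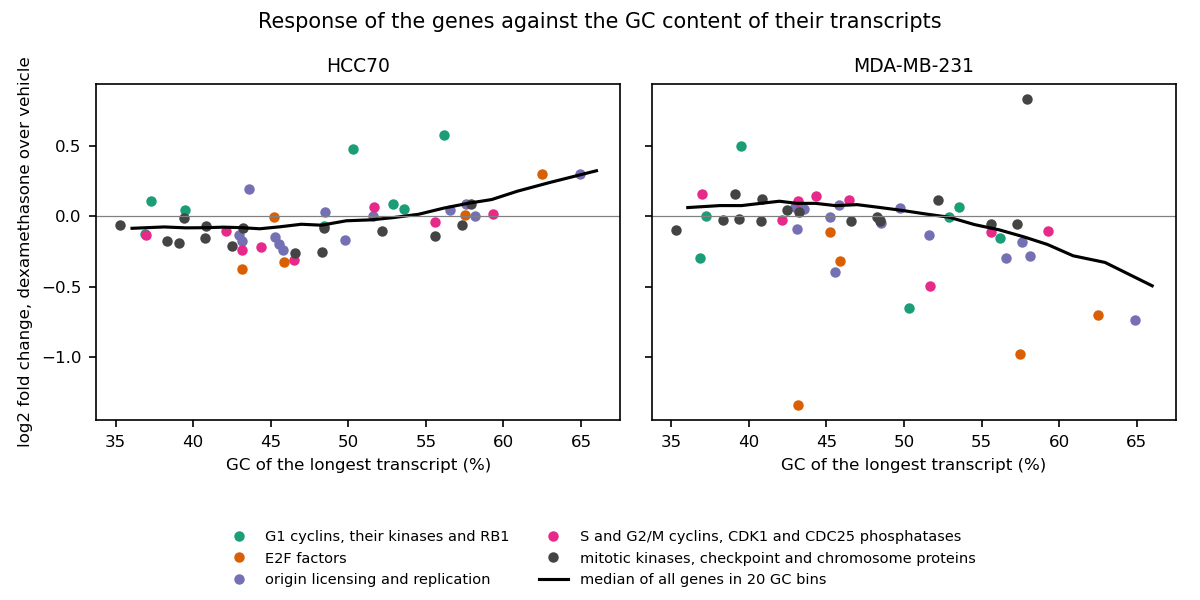
Log2 fold change, dexamethasone over vehicle, of 49 members against the GC percentage of the longest transcript, in HCC70 (left) and MDA-MB-231 (right); the black line joins medians of all genes in 20 GC bins. The line climbs with GC in HCC70 (rho 0.50) and descends in MDA-MB-231 (rho −0.45); E2F7, CCND1, CDC25A and E2F2 lie below it and CDC20 above it in MDA-MB-231.

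Under vehicle the lines already differed in most of these genes, as in most genes tested. Of the 49 members other than CCND2, 13 were higher and 30 lower in HCC70 than in MDA-MB-231, against 39.2% of all tested genes higher and 40% lower (79.2% in either direction). In a fit limited to 13796 genes of at least 5 CPM in 3 libraries, 86.8% differed. There 12 members were higher and 32 lower in HCC70. The median over the 49 was −0.51, against −0.03 over all genes; 12 of 15 mitotic genes were lower in HCC70 and 1, PLK1, was higher. The members took 0.550 to 0.571% of the counts in HCC70 vehicle libraries and 0.770 to 0.835% in MDA-MB-231 vehicle libraries.

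E2F2 ran against this direction, at 178, 182 and 192 CPM in HCC70 vehicle libraries and 15.1, 13 and 11.8 CPM in MDA-MB-231 vehicle libraries, 13.8-fold higher (3.78 ± 0.09, adjusted p = 3.96e-14). The other E2F factors were lower in HCC70, E2F7 most, at 25.3, 23.7 and 24.7 CPM against 82.0, 95.4 and 95.1 CPM (−1.89 ± 0.07, adjusted p = 4.19e-12). Per kilobase of the longest transcript, E2F1 had the highest level of the 5 factors in both lines, at 48.6 CPM per kilobase in HCC70 and 69.2 CPM per kilobase in MDA-MB-231. E2F2 stood next in HCC70, at 35.4 CPM per kilobase, but was the lowest in MDA-MB-231, at 2.57 CPM per kilobase, where E2F7 stood next after E2F1, at 15.8 CPM per kilobase.

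The levels of the D cyclins also differed between the lines. CCND1 read 114, 116 and 115 CPM in HCC70 vehicle libraries and 708, 678 and 652 CPM in MDA-MB-231 vehicle libraries, 5.91-fold lower (−2.56 ± 0.06, adjusted p = 2e-14). CCND3 read 86.7, 90.1 and 87.9 CPM in HCC70 and 277, 227 and 200 CPM in MDA-MB-231, 2.66-fold lower (−1.41 ± 0.11, adjusted p = 4.94e-08). CCND2, cyclin D2, had 0 counts in all 3 HCC70 vehicle libraries and 113 counts in MDA-MB-231 vehicle libraries, 0.312 CPM; against a floor of 3 counts over the group it was at least 36.1-fold lower in HCC70 (floor for counting error only). With dexamethasone CCND2 had 3 counts in HCC70 libraries, at the floor, and 138 counts in MDA-MB-231. Per kilobase, CCND3 exceeded CCND1 in HCC70 (36.9 and 26.7 CPM per kilobase), and CCND1 exceeded CCND3 in MDA-MB-231 (158 and 98 CPM per kilobase). For CDK4 no difference passed (109, 109 and 103 CPM in HCC70; 112, 103 and 99.7 CPM in MDA-MB-231; 0.03 ± 0.06, adjusted p = 0.648), while CDK6 and RB1 were 2.09-fold and 1.96-fold lower in HCC70 (adjusted p = 1.8e-09 and 1.52e-08).

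The remaining large differences were all lower in HCC70. CDC25A was 3.52-fold lower, CDC6 was 3.14-fold lower (27.3, 25.8 and 22.3 CPM in HCC70; 74.5, 78.8 and 83.2 CPM in MDA-MB-231) and AURKA was 3.06-fold lower (65.3, 61.9 and 60.4 CPM in HCC70; 184, 190 and 200 CPM in MDA-MB-231). RRM1, the large subunit of ribonucleotide reductase, read 83.8, 72.4 and 78.3 CPM in HCC70 and 217, 250 and 242 CPM in MDA-MB-231. TYMS, thymidylate synthase, read 64.6, 64.9 and 57.6 CPM in HCC70 and 181, 178 and 181 CPM in MDA-MB-231. MAD2L1, a spindle checkpoint protein, read 18.5, 16 and 16.5 CPM in HCC70 and 46.2, 48.5 and 50.5 CPM in MDA-MB-231. None of these overlapped, with log2 fold changes of −1.60, −1.53 and −1.51 for RRM1, TYMS and MAD2L1 and adjusted p of at most 3.62e-10.

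The MCM helicase was uneven, although its 6 subunits work as a ring: MCM2, MCM4 and MCM5 were higher in HCC70 (0.96, 0.14 and 0.69), MCM3 and MCM7 lower (−1.12 and −0.51), and MCM6 did not pass (−0.08, adjusted p = 0.271). The call on MCM4 ended with upper quartile factors (0.04) library size alone (0.06) or only the vehicle libraries in the fit (0.13). MKI67 read 387, 376 and 355 CPM in HCC70 and 497, 569 and 637 CPM in MDA-MB-231 (−0.61 ± 0.08, adjusted p = 6.34e-06). CCNB1 was 2.57-fold lower in HCC70 (−1.36 ± 0.08), and PCNA was 1.38-fold higher (0.46 ± 0.06, adjusted p = 4.64e-06). E2F1 was lower in HCC70 by 0.51 ± 0.15 on the log2 scale (adjusted p = 0.00864); its log2 fold change was −0.30 without MDA-MB-231 vehicle replicate 1 and −0.98 with the GC and length offset.

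**Figure D5:**
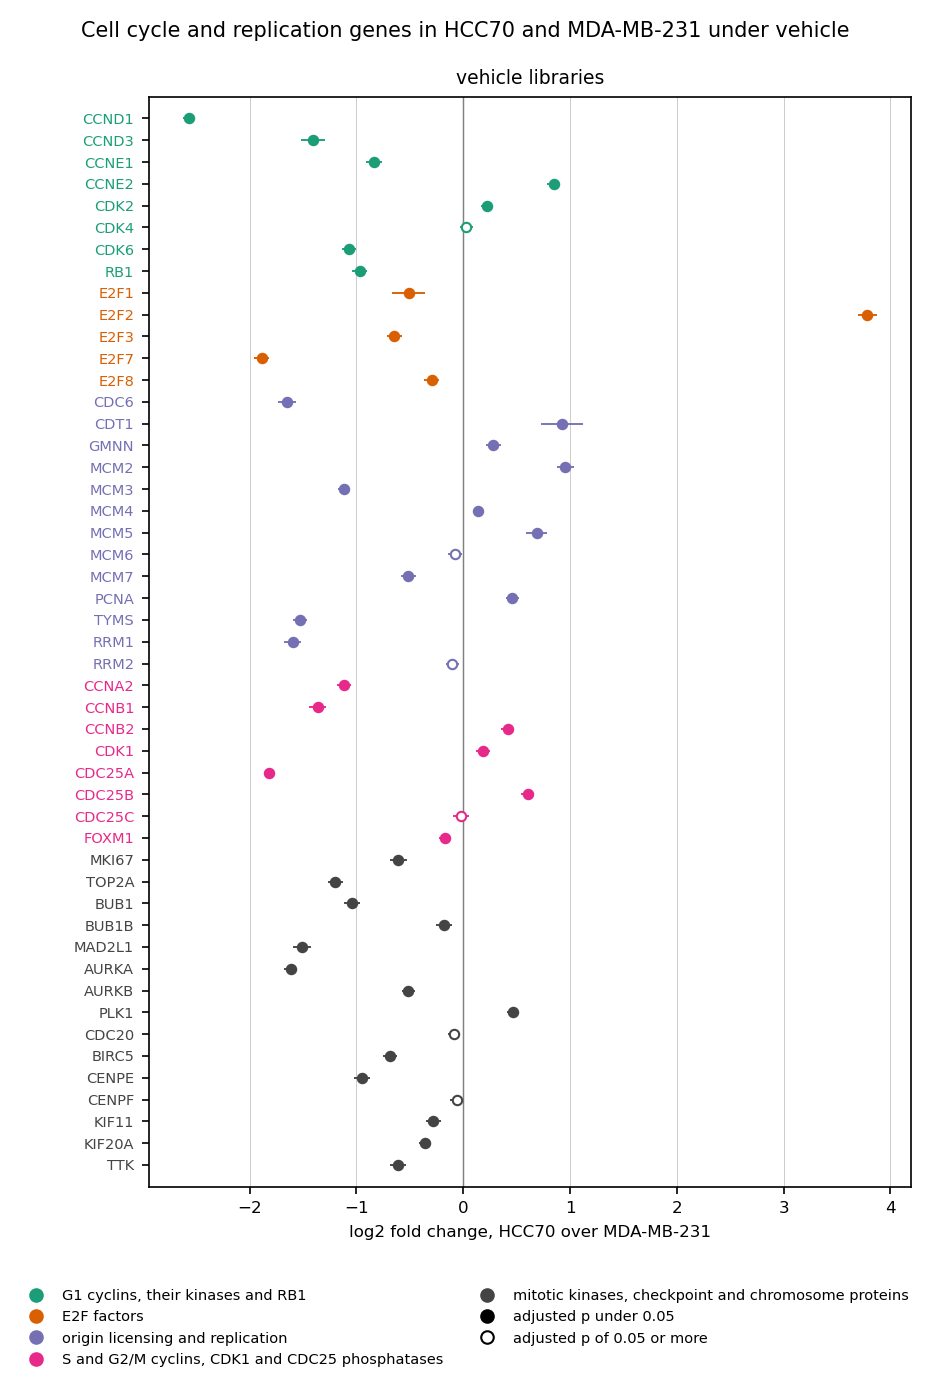
Log2 fold change, HCC70 over MDA-MB-231, of 49 members in vehicle libraries (3 of each line), with bars of 1 SE; colours give the role and filled points passed at an adjusted p under 0.05. E2F2 lies alone on the right at 3.78, CCND1 is farthest left at −2.56, and most mitotic genes lie left of 0; CCND2, with no count in HCC70 vehicle libraries, is not drawn.

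Cyclin-dependent kinase inhibitors, which restrain the kinases above, were read as a separate list of 7. CDKN1A, the inhibitor p21, read 206, 218 and 209 CPM with dexamethasone and 62.5, 59.0 and 58.9 CPM with vehicle in MDA-MB-231 (1.81 ± 0.07, adjusted p = 6.42e-10). In HCC70 it read 65.9, 69.6 and 67.7 CPM with dexamethasone and 51.2, 60.5 and 50.0 CPM with vehicle (0.33 ± 0.07, adjusted p = 0.0173), a call that ended with the offset (0.21, adjusted p = 0.0846). Both rises were free of overlap, and the difference of the responses was −1.48 (adjusted p = 4.54e-07). CDKN1C, p57, rose in MDA-MB-231, at 23.0, 46.4 and 27.0 CPM with dexamethasone and 14.5, 10.8 and 7.52 CPM with vehicle (1.55 ± 0.29, adjusted p = 0.00601). CDKN1B, p27, and CDKN2C fell there (−0.40 and −0.32, adjusted p = 0.00165 and 0.0172). CDKN2A and CDKN2B, neighbours that encode p16 and p15, read 403 to 450 CPM and 81.9 to 87.9 CPM in HCC70 vehicle libraries and had 0 counts in every MDA-MB-231 library.

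Genes outside the 50 were counted by list and are read against the shares of all genes, 7.96% lower and 6.65% higher in MDA-MB-231 and 1.4% lower and 2.55% higher in HCC70. In MDA-MB-231, 7 of 43 further replication genes passed, all lower, led by ORC1 (−0.39 ± 0.06, adjusted p = 0.000523), a subunit of the origin recognition complex, FEN1 (−0.34 ± 0.06, adjusted p = 0.00173), the flap nuclease, and CHAF1A (−0.28 ± 0.06, adjusted p = 0.00839), a histone chaperone; with the offset CHAF1A was at −0.09 (adjusted p = 0.267). In HCC70 3 of the 43 fell and 0 rose: CHAF1B (−0.29), CLSPN (−0.35) and POLD3 (−0.24). Of 36 further mitotic genes in the fit without an offset, SPC25 was the 1 higher and SGOL1 the 1 lower in MDA-MB-231, below those shares. In HCC70 SGOL1, a protector of sister chromatid cohesion, was again the 1 lower (−0.27 in MDA-MB-231, −0.24 in HCC70). With the offset SPC25 was at 0.04 in MDA-MB-231 and SGOL1 at −0.13 in HCC70, and neither passed. Of 23 other RB, E2F, DREAM and checkpoint regulators, SKP2 (−0.25) and LIN52 (−0.27) were the 2 that fell in MDA-MB-231 without the offset, a count near the share of all genes. The lowest adjusted p in HCC70 was then that of SKP2, at 0.0621. With the offset, 11 of the 43, 7 of the 36 and 5 of the 23 were lower in MDA-MB-231, against 9.68% of all genes. Higher there were 0, 2 and 1, against 8.63%. In HCC70 the offset left 6, 3 and 2 lower, against 3.29%, and 0, 0 and 2 higher, against 4.21%.

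The libraries were not stranded, so reads of overlapping genes cannot be separated. In GENCODE 29, exons of 20 of the 50 members overlap another gene, among them CCND1, CCND3, CCNE2, CDK4, CDK6, E2F8, MCM2, RRM2 and CDC25C. No exon overlap was found for E2F1, E2F2, E2F7, CDC6, CDT1, CDC25A, CDC20, AURKA, MKI67, PCNA or CCNB1.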

How the data were processed

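The deposited table held read counts per gene from polyA-selected, transposase-based, non-stranded libraries read as paired ends of 50 bp, per the labels' protocols. The submitters' processing notes name TopHat 1.4.1, Cufflinks 1.3.0, bedtools and hg19; the counting rule is not given in the sources used here. The deposited counts were unscaled, at 106345287 to 123218973 per library, so a group of 3 libraries resolves about 0.00782 to 0.00898 CPM (3 counts, counting error only).

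The counts of all 12 libraries were fitted with 1 mean per group in edgeR 4.0.16 (R 4.3.3): filterByExpr at a minimum count of 10, TMM factors, robust quasi-likelihood fit, two-sided tests, Benjamini-Hochberg adjustment over 28141 genes and a threshold of 0.05. The contrasts were dexamethasone against vehicle in each line, their difference, and HCC70 against MDA-MB-231 in vehicle. SE is the absolute log2 fold change over the root of F. CPM used TMM-scaled library sizes. DESeq2 1.42.0, limma voom 3.58.1, other scalings and filters, a replicate block, each contrast alone, and an offset by natural splines of GC content and log length (5 degrees of freedom each, 89.8% of tested genes with a value) were alternatives, as was leaving out each library. The scripts were tested on simulated data.

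Values in every library are given for the members that passed in a treatment contrast (the 8 smallest adjusted p if over 8), the 10 largest differences in vehicle, up to 8 differences of response, and CCND1, CCND2, CCND3, CDK4, CDK6, RB1, E2F1, MKI67, PCNA, CCNB1 and CDC6; of other pathway genes, up to 3 per list and contrast. The genes, lists and tests were chosen with earlier results of these data known, and no list was tested as a set. Gene coordinates of the files' build were not used; promoters and GC content come from RefSeq (GRCh38.p14) and GENCODE 29.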

Additional observations from a re-analysis of the deposited data

Results flagged for a closer look

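The response to dexamethasone differed between HCC70 and MDA-MB-231 for 13 of the 50 genes in the test of that difference (edgeR, adjusted p under 0.05), against 12.1% of all genes tested. As HCC70 minus MDA-MB-231 on the log2 scale, 7 differences were positive: CCND1 at 1.13, CDT1 at 1.03, E2F1 at 1.00, E2F2 at 0.99, E2F7 at 0.96, CCND3 at 0.73 and CDC25A at 0.56. The other 6 were negative: CDC20 at −0.74, CDK6 at −0.45, CDC25C at −0.42, CCNB2 at −0.36, TOP2A at −0.35 and RRM2 at −0.32. In a fit limited to 13796 genes of at least 5 CPM in 3 libraries, 30.3% of genes passed. There 7 members were positive and 9 negative.

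With the GC and length offset the difference was 0.44 for E2F1, 0.60 for E2F2 and 0.28 for CDT1, which still passed, and −0.16 for CCNB2 and −0.23 for CDC25C, which did not (adjusted p = 0.0944 and 0.164). In that fit 10 members passed above 0 and 6 below, against 13.8% of all genes in either direction. GMNN (0.44, edgeR adjusted p = 0.000274) and CCNE2 (0.34, 0.00134) were among those added by the offset. Groups of 3 libraries are too small for a test of single outlying libraries.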

How the results depend on the processing

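No call of the main fit on a member changed sign under any of the 26 alternatives, or the 24 that apply to the difference of the responses. Some members without a call in the main fit passed with the GC and length offset at the opposite sign. Among them were E2F2 in HCC70 (0.01, and −0.16 with the offset), CDC25B for the difference (0.12 and −0.32) and CDK4 in vehicle (0.03 and −0.16). In MDA-MB-231, 12 members passed, and 9 to 17 under the alternatives (9 to 15 with 1 library left out); CCND1, CCNE2, CDK6, E2F2, E2F7, E2F8, CDC6, CDC25A and CDC20 passed in every one. In vehicle 44 passed, CCND2 included, and 41 to 47 under the alternatives (43 to 44 with 1 library left out). In HCC70, 7 passed, and 20 with the line fitted alone, 12 with the GC and length offset, 22 with both, 18 without MDA-MB-231 vehicle replicate 1 and dexamethasone replicate 2 together (of all genes 3.96% passed, and 19.1%, 7.5%, 17.5% and 13.5% in these settings), and 2 to 9 with 1 library left out; CCND1 passed in every one. For the difference of the responses 13 passed, and 8 to 19 with 1 library left out; 8 remained without HCC70 dexamethasone replicate 3, HCC70 vehicle replicate 1, or MDA-MB-231 dexamethasone replicate 1 or 3. Why the HCC70 count depends on the fit was not tested. Scaling by library size alone moved the median of all genes for the difference from −0.01 to −0.13.

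Same-numbered libraries did not deviate together (correlations −0.23, 0.12 and 0.01 in HCC70, and −0.63, −0.26 and 0.33 in MDA-MB-231; 1 of 6 libraries of each line correlated best with its own number), so the numbers were not taken as pairs. With a replicate block 1 member passed in HCC70 and 8 for the difference.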

Other observations

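The line fitted alone, rather than all 12 libraries, would put TOP2A, BUB1, KIF11 and AURKB among the mitotic genes called in HCC70 (log2 fold changes −0.19, −0.21, −0.18 and −0.14), and 3 replication genes beside RRM2: MCM6 (−0.18), PCNA (−0.15) and TYMS (−0.17). In that fit 7.13% of all genes tested were lower. With the GC and length offset added, PCNA and TYMS did not pass, while MCM6 (−0.11), CDC6 (−0.18) and MCM2 (−0.16) were lower. The share of all genes lower was then 8.69%.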
